A study of Mus musculus with 2 samples.

Results

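The cells described here are epithelial cells of KPPC mouse pancreatic tumours that carry the keratin and Epcam transcripts of duct epithelium together with Cdkn2a, and they number 1702 of 36662 barcodes from 2 libraries. They were chosen by a rule on measured transcript counts. A barcode needed at least 1000 unique molecular identifiers (UMIs, 1 for each captured transcript), 500 genes and at most 20% mitochondrial UMIs. It needed at least 5 UMIs of Krt8, Krt18, Krt19 and Epcam in sum and at least 1 of Cdkn2a. It was left out with 1% or more of its UMIs from Tff1, Tff2, Gkn1, Gkn2 and Gkn3, with 5 or more of Muc2 and Spink4, with any of Cd79a, Cd3e or Pecam1, or with more than 2 of C1qa, C1qb and C1qc. The resulting cells are called Cdkn2a+ ductal cells below, and 751 came from the vehicle library and 951 from the takinib library.

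The study recorded single-cell RNA from pancreatic tumours of KPPC mice that received vehicle or takinib, an inhibitor of the kinase TAK1 that Map3k7 encodes. Mice in both groups were 6 weeks old and were treated for 14 days, the takinib group at 50 mg/kg. The labels name the KPPC model without spelling out its alleles, and by common usage the name stands for an oncogene-driven model with loss of both Trp53 copies, made with a Cre active in the embryonic pancreas. Both groups share that genotype, so no comparison here has normal ducts as its reference. There was 1 library for each group, and the number of mice behind a library is not stated in the labels. No difference between the libraries therefore has a replicate check or a test, and treatment, animal and library cannot be told apart. Intervals below are 95% counting intervals, exact Poisson for levels and exact binomial for shares, and cover counting error only.

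Cdkn2a encodes p16Ink4a, which holds the RB protein active by blocking the cyclin D kinases, and, from another first exon, p19Arf, which keeps p53 stable by restraining Mdm2. The locus is silent in most normal cells, is switched on by oncogenic signals, and is often deleted or silenced in human pancreatic cancer. TAK1, with its partners Tab1, Tab2 and Tab3, carries signals from cytokine receptors to the IKK kinases and NF-kB and to the JNK and p38 kinases.

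The libraries differed in depth and handling before any treatment effect can be read. Cdkn2a+ ductal cells had a median of 6299 UMIs and 2588 genes in vehicle and 12055 UMIs and 3607 genes in takinib. Their median mitochondrial share was 7.02% in vehicle and 2.93% in takinib. No barcode of these cells occurred in both libraries, although 400 barcodes of all those past the depth filters did. In vehicle, 387 of the 751 cells had UMIs of Y-linked genes without Xist, 109 had Xist alone, 20 had both and 235 neither, so that the vehicle library held cells of both sexes. In takinib, 876 of 951 had Xist and the Y-linked genes had 0 UMIs. Sex of the cells thus moved with treatment. Ratios were also taken against vehicle cells with Xist alone or with Y-linked UMIs alone. They are given beside named pathway genes past the 2-fold line where they fall inside it or turn direction.

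The locus lies on the minus strand of chromosome 4. In the mouse genome GRCm38, Cdkn2a (ENSMUSG00000044303) spans chr4:89274471-89294653. Transcript Cdkn2a-202 begins in exon 1 at chr4:89294334-89294653, and Cdkn2a-201 begins in its own exon 1 at chr4:89281986-89282192. Both run through the same exon 2 at chr4:89276645-89276985 and end in an overlapping last exon. Because these libraries count transcripts per gene and the transcripts share their 3′ part, the products p16Ink4a and p19Arf could not be told apart. Cdkn2b, which encodes the related inhibitor p15Ink4b, lies upstream at chr4:89306299-89311039, and Mtap, a methionine salvage enzyme often lost with CDKN2A in human tumours, lies downstream at chr4:89137122-89181081. The sequence upstream of each start is shown because Cdkn2a, Cdkn2b and Mtap levels are compared cell by cell below. Letters are from RefSeq promoters of GRCm38.p6, 5′ to 3′ on the minus strand, without bases in annotated exons, and capitals mark a motif match.
Cdkn2a upstream of the Cdkn2a-202 exon 1, chr4:89294654-89294869: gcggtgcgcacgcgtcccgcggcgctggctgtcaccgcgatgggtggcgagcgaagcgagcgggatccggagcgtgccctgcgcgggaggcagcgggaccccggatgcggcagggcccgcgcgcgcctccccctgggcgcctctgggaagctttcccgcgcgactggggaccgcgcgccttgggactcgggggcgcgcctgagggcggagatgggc
Cdkn2a upstream of the Cdkn2a-201 exon 1, chr4:89282193-89282442: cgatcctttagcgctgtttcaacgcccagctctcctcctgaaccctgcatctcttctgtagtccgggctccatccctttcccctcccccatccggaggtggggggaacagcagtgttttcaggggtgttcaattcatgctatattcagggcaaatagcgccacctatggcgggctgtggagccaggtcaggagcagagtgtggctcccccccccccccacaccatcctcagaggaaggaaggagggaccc
Cdkn2b upstream of its exon 1, chr4:89311040-89311282: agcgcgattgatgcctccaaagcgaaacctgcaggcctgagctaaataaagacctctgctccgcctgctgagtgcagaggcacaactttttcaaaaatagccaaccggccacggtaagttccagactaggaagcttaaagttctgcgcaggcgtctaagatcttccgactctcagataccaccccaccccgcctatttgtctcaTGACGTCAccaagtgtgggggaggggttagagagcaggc
The letters searched, on both strands, were AP-1 TGANTCA, TEAD GGAATG, E2F TTCCCGCC, the cyclic AMP element TGACGTCA and NF-kB GGANTTTCC. Only Cdkn2b had a match, TGACGTCA 46 bases before its start, a string found in 1.55% of 32851 promoters. The other searched strings occurred in 6.75% of promoters for AP-1, 12.6% for TEAD, 1.86% for E2F and 1.07% for NF-kB. A match describes the letters and is not evidence of binding.

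The label of ductal carcinoma was checked against its markers. Summed over the cells, Krt18, an intermediate filament of simple epithelium used by the rule, was at 1681 CPM (its UMIs scaled to 1e+06 UMIs of the cells) in vehicle and 2154 in takinib. Epcam, an epithelial adhesion protein also used by the rule, was at 1368 and 1822 CPM. Krt7, a duct keratin that the rule did not use, was at 1333 CPM [1304, 1362] in vehicle and 1147 [1129, 1165] in takinib. Hmga2, an oncofetal chromatin protein that the rule did not use, was at 292 [279, 306] and 231 [223, 240] CPM. It had 0 UMIs in 354 of the 751 vehicle cells and 475 of the 951 takinib cells. Empty vehicle droplets held these transcripts at lower levels, 235 CPM for Krt18, 254 for Epcam, 205 for Krt7 and 39.9 for Hmga2. Among 25 detected ductal identity genes, Sox9, the duct and progenitor factor, was at 306 and 201 CPM and Cdh1, which encodes E-cadherin, at 358 and 341. The squamous keratins Krt5 and Krt6b had 0 counts in both libraries, with intervals ending at 0.606 CPM in vehicle and 0.270 in takinib. Krt18 and Epcam, being part of the rule, do not bear on the label. Krt7 and the ductal genes that the rule did not use were present in both libraries, but not evenly. The largest cluster, led by the neutrophil genes Retnlg, S100a9 and S100a8, held 338 takinib cells (35.5%) and 3 vehicle cells. It had Krt7 at 1100 CPM and Hmga2 at 247. A cluster led by acinar genes, with 157 vehicle and 158 takinib cells, had Hmga2 at 16.1 CPM. Clusters led by macrophage and by collagen genes held 46 and 23 takinib cells and 8 and 25 vehicle cells, and a vehicle cluster with little Epcam is described with the mesenchymal genes.

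Cdkn2a itself was used by the rule, so its level in these cells is a description. It was at 1104 CPM [1077, 1130] in vehicle and 535 [523, 548] in takinib. The median cell had 5 UMIs in vehicle and 4 in takinib, and the highest had 145 and 157. Cdkn2a was seen once in 136 vehicle and 175 takinib cells, 2 to 4 times in 239 and 309, and 5 or more times in 376 and 467. Cells that met every other condition with 0 Cdkn2a UMIs numbered 341 in vehicle, with a median of 3693 UMIs, and 321 in takinib, with a median of 6136. The cells outside the threshold were thus the shallower ones in both libraries, and a cell at 0 may have held the transcript below detection. At the keratin and Epcam threshold, 56 vehicle and 48 takinib cells had summed UMIs of 5 to 9, with Vim at 1719 and 2041 CPM. Just outside it, 20 and 18 cells with sums of 3 or 4 had Vim at 2239 and 2399 CPM.

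**Figure D1:**
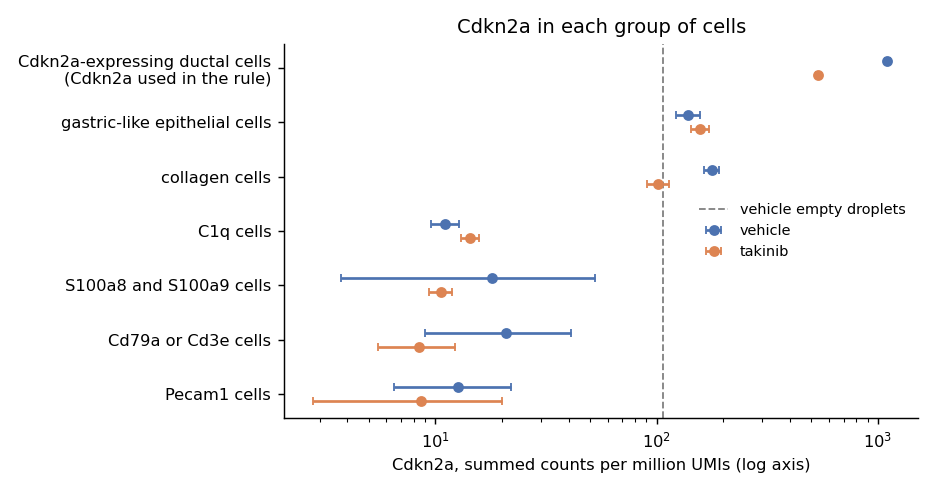
Level of Cdkn2a (CPM over summed cells, log axis) in each group of cells and library, with exact 95% Poisson intervals, and in empty vehicle droplets (dashed line). The Cdkn2a+ ductal cells, chosen by this gene, are at 1104 and 535 CPM, and the C1q cells are at 11.1 and 14.4.

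Other cell groups show the background against which a single Cdkn2a UMI is read. Macrophages with at least 10 C1q UMIs had Cdkn2a in 3.72% of cells in vehicle and 5.29% in takinib, at 11.1 and 14.4 CPM, with median depths of 4112 and 6938 UMIs. Thinned to 2000 UMIs, with shallower cells left out, the shares were 1.79% of 3389 cells and 2.00% of 3813. The same thinning left a Cdkn2a UMI in 78.6% of 723 and 58.1% of 939 Cdkn2a+ ductal cells, whose higher share the rule itself fixes. Cells rich in S100a8 and S100a9 were at 18.1 and 10.6 CPM, and cells with Cd79a or Cd3e at 20.8 and 8.40. Collagen-rich cells were higher, at 177 and 101 CPM. Gastric-like epithelial cells, which met the keratin condition but passed the limit on Tff and Gkn genes, were at 138 and 157 CPM. The empty vehicle droplets, at 107 CPM from 70 counts, lay above the immune cells and between the 2 libraries' collagen-rich cells.

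Cdkn2a+ ductal cells were 68.8% [65.9, 71.5] of the 1092 vehicle barcodes that met all other conditions and 74.8% [72.3, 77.1] of the 1272 takinib barcodes. The difference was 5.99 points, with a counting interval of 2.29 to 9.69. Its direction turned with depth. Thinned to 2000 UMIs the shares were 55.9% in vehicle and 44.5% in takinib, and with at most 10% mitochondrial UMIs they were 78.9% and 77.4%. No order of the libraries is therefore read from this share. Of all barcodes past the depth filters, the cells made up 7.61% in vehicle and 3.55% in takinib, and takinib held 8433 S100a8- and S100a9-rich cells in that total against 105 in vehicle.

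Cdkn2b was higher in cells with more Cdkn2a UMIs. In vehicle its level was 57.4 CPM in cells with 0 Cdkn2a UMIs, 113 with 1, 166 with 2 to 4, and 361 with 5 or more. Takinib gave 29.7, 51.5, 79.7 and 186 CPM over the same bands. The 95% intervals of the lowest and highest band did not overlap in either library, and takinib was lower than vehicle in every band. Mtap was flatter, at 31.6, 42.7, 85.2 and 112 CPM in vehicle and 36.7, 44.9, 38.3 and 73.9 in takinib. Depth moved with the band as well, from a median of 3693 to 9173 UMIs in vehicle and from 6136 to 16348 in takinib, and its part in these gradients was not tested.

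Several genes that the rule did not use followed the same bands. Hmga2 was at 74.2, 182, 172 and 346 CPM in vehicle from the lowest to the highest band, and at 69.1, 73.3, 81.7 and 319 in takinib, so that its higher level in takinib lay in the cells with 5 or more Cdkn2a UMIs. Krt7 was at 692, 1026, 1212 and 1419 CPM in vehicle and 527, 754, 974 and 1286 in takinib. Ccnd1, which encodes the cyclin D1 that p16Ink4a opposes, was at 263, 435, 431 and 706 CPM and at 83.4, 136, 151 and 373. By summed level these genes were thus highest where Cdkn2a was highest in both libraries. Vim, a mesenchymal filament, was not: it was at 359, 177, 550 and 2835 CPM in vehicle and 933, 400, 110 and 438 in takinib. Cdkn1a, the p53 target that encodes p21, was near level in vehicle, at 72.9, 77.9, 74.9 and 85.8 CPM, and lower from band to band in takinib, at 374, 295, 243 and 212.

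**Figure D2:**
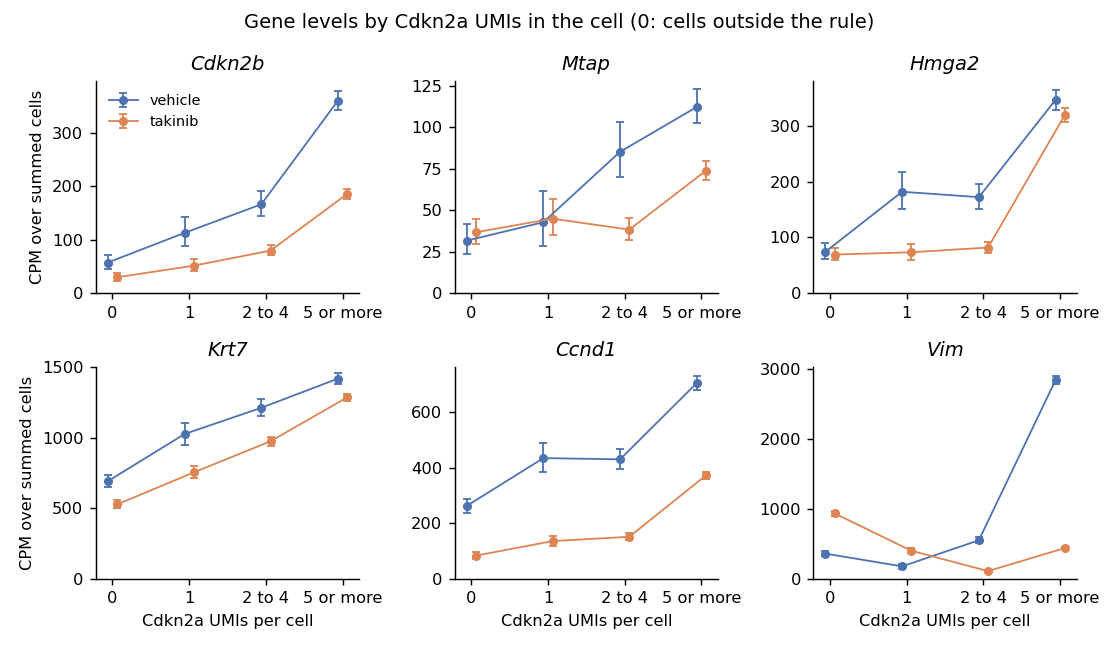
Level of 6 genes (CPM over summed cells, y axis, own scale for each gene) by the number of Cdkn2a UMIs in the cell (x axis) in vehicle (blue) and takinib (orange), with exact 95% Poisson intervals. Cdkn2b, Hmga2, Krt7 and Ccnd1 are highest in cells with 5 or more Cdkn2a UMIs in both libraries, and Vim is highest there in vehicle only.

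Set against the cells with 0 Cdkn2a UMIs over all genes, 256 of 9599 genes (2.67%) were more than 2-fold higher and 314 (3.27%) more than 2-fold lower in vehicle. In takinib 69 of 11409 (0.605%) were higher and 343 (3.01%) lower. Here and below a fold is of CPM with 10 CPM added to each side, among genes with at least 50 counts on either side. Because Cdkn2a chose both groups of cells, these are descriptions. Of 9444 genes measured in both libraries, 30 were higher and 108 lower in both. After Cdkn2a itself, Cdkn2b led the higher genes, with log2 differences of 2.17 in vehicle and 1.95 in takinib. Col18a1, a basement membrane collagen, was at 422 CPM against 113 in vehicle and 160 against 44.4 in takinib. Npnt, a matrix ligand of integrins, was at 311 against 64.5 CPM and 134 against 36.7. Hmga2 and the embryonic claudin gene Cldn6 were also among them, Cldn6 at 202 against 67.1 CPM and 97.3 against 20.1. The leading lower genes included acinar, fibroblast and epithelial genes. Ctrb1, an acinar protease, was at 80.5 against 2418 CPM and 531 against 4188, and Dcn, a fibroblast proteoglycan, at 42.1 against 953 and 42.6 against 1215. Among epithelial genes, Slpi, a secreted protease inhibitor, was at 24.3 against 896 CPM and 569 against 3491, and Cdhr5, a brush border cadherin, at 0.99 against 56.1 and 1.10 against 51.4.

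Against the gastric-like epithelial cells of the same libraries, 837 of 9575 genes (8.74%) were higher and 374 (3.91%) lower in vehicle, and 301 of 11372 (2.65%) higher and 211 (1.86%) lower in takinib. In both libraries 248 of 9436 were higher and 156 lower. Hmga2 was at 292 against 10.0 CPM in vehicle and 231 against 10.4 in takinib. Fbln2, a matrix glycoprotein, was at 821 against 27.2 CPM and 417 against 14.0. Sox11, an embryonic transcription factor, was at 246 against 11.7 CPM and 111 against 4.23. Fn1, which encodes fibronectin, was at 6111 against 119 CPM in vehicle and 1032 against 107 in takinib, so this gap was narrower in takinib.

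Between the libraries, 385 of 11470 genes (3.36%) were more than 2-fold higher in takinib in the Cdkn2a+ ductal cells and 310 (2.7%) more than 2-fold lower, with a median log2 ratio over all genes of -0.08. The leading higher genes were those of neutrophils. S100a9 was at 26 CPM in vehicle and 4737 in takinib, S100a8 at 44.4 and 5456, and Retnlg at 4.27 and 505. All 12 listed neutrophil markers were higher, and their summed level went from 131 to 11815 CPM. The 12 markers were all at 0 in 69.8% of vehicle cells and 2.00% of takinib cells. If S100a8 and S100a9 measure neutrophil RNA in these cells, its amount in proportion is 7.86% of the takinib total. Of the takinib cells, 646 (67.9%) had at most 0.5% of UMIs from S100a8 and S100a9, as did 748 vehicle cells, and this low-S100 set, where the proportional amount is 0.70%, is given beside each inflammatory result. Over all 10632 genes compared in that set, 307 (2.89%) were higher and 316 (2.97%) lower. In takinib all other marker lists were at lower summed levels, while in vehicle several were above the neutrophil sum. Macrophage markers were at 511 CPM in vehicle and 860 in takinib, gastric at 715 and 1023, and acinar at 158 and 921. T and NK cell markers were at 72.3 and 10.1 CPM, endothelial at 60.5 and 27.7, endocrine at 21.7 and 220, and erythroid at 121 and 400.

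The cell-cycle inhibitors did not move as 1 group. Of 7 INK4 and CIP genes other than Cdkn2a, takinib had 1 higher and 0 lower, and the median was 0.16. Cdkn2a is left out of the count because the rule chose the cells by it. Its log2 ratio of -1.03 is a description only, since a minimum of 1 UMI admits cells of lower CPM in the deeper takinib library. That ratio was -1.40 against vehicle cells with Xist and -0.95, inside the line, against those with Y-linked UMIs. Cdkn2b, at 294 CPM in vehicle [280, 308] and 144 in takinib [138, 150], was just inside the 2-fold line at -0.98. Its log2 ratio ranged from -1.41, past the line, to -0.34 over all alternatives run. The other genes within 500 kb that had at least 50 counts were also at lower levels in takinib, none past the 2-fold line. Beside Cdkn2b these were Mtap at 99.1 and 61.6 CPM, Gm49890 at 30.4 and 12.5, Wincr1 at 18.6 and 9.16, and Gm12602 at 8.38 and 3.88. Cdkn1a was higher in takinib, at 82.7 CPM in vehicle [75.6, 90.2] and 229 in takinib [221, 237], a log2 ratio of 1.37. Among low-S100 cells its log2 ratio was 0.77, inside the line, and it was 0.64 against vehicle cells with Xist and 1.63 against those with Y-linked UMIs. Cdkn2b was at -1.01 in the low-S100 cells.

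The p53 pathway had 22 measured genes, of which 2 passed upward and 1 downward, the median being 0.03. Fas, a death receptor, was at 1.97 and 22.6 CPM, and Phlda3, an Akt antagonist, at 56.0 and 20.9. Mdm2, which marks p53 for degradation and is its target, was at 40.9 and 44.1 CPM. Trp53 transcripts were at 22.5 CPM in vehicle and 41.1 in takinib. Counts per gene do not show whether the deleted exons are missing, so these Trp53 counts do not check the genotype. Fas was at a log2 ratio of 0.71 in the low-S100 cells, inside the line. Phlda3, at -1.09 over all cells, was just inside the line in the low-S100 cells, at -0.996.

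Cyclins and replication genes showed little change past the line. Among 13 genes of the G1 cyclins, CDKs, RB and E2F factors, Ccnd1 alone passed, at 619 CPM in vehicle [600, 639] and 290 in takinib [281, 300], a log2 ratio of -1.07. None of 18 S phase genes passed, with a median of -0.38. Mcm6, of the replicative helicase, was at 56.9 and 30.5 CPM. None of 21 G2/M genes passed, with a median of 0.00. Mki67, the proliferation antigen, was at 26.5 CPM [22.5, 30.9] and 37.9 [34.7, 41.4]. Cells with at least 3 G2/M UMIs were 17.2% in vehicle and 21.1% in takinib, and 4.59% and 5.65% after thinning to 2000 UMIs, which left out 28 and 12 shallower cells. The G2/M direction rested on the vehicle cells used. Its median was 0.82 against vehicle cells with Xist and -0.26 against those with Y-linked UMIs, where Mki67 was at 5.54 and 34.3 CPM.

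RAS-MAPK output genes numbered 24, with 0 higher, 2 lower and a median of -0.30. Epha2, a receptor kinase of ephrin ligands, was at 125 and 51.7 CPM. Hbegf, an EGFR ligand, was at 419 and 206 CPM, just inside the line at -0.99.

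Components of the drug's target pathway were all within the line. For Map3k7, which encodes TAK1, vehicle gave 34.7 CPM [30.2, 39.7] and takinib 25.6 [23.0, 28.5]. Ikbkb, an IKK kinase, was at 70.3 and 38.4 CPM, the lowest log2 ratio of the 11 genes at -0.73, and the median was -0.33. A kinase inhibitor acts on the protein, and these transcript levels do not measure its activity.

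Genes that NF-kB is known to induce were higher in part. Among 14 NF-kB subunit and feedback genes, 2 were higher and 0 lower, with a median of 0.05. Nfkbia, the inhibitor of NF-kB and its direct target, was at 70.7 CPM in vehicle [64.1, 77.7] and 454 in takinib [443, 465], a log2 ratio of 2.52. Tnfaip3, the deubiquitinase A20, was at 22.7 and 82.3 CPM. Rela, the main activating subunit, was at 55.9 and 46.8 CPM. Nfkbia, in the low-S100 cells, stayed past the line at 1.48 and Tnfaip3 did not, at 0.73, nor against vehicle cells with Xist, at 0.79. The S100a8- and S100a9-rich cells of takinib held Nfkbia at 2560 CPM.

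Cytokine and adhesion targets of NF-kB split in direction. Of 19 measured, 8 were higher and 2 lower, with a median of 0.60. The list median was 0.15 in the acinar-led cluster that both libraries share. Cxcl2, a neutrophil chemokine, was at 35.8 CPM in vehicle [31.2, 40.9] and 3351 in takinib [3320, 3381]. Cxcl5, an epithelial chemokine for the same receptor, was at 36.8 [32.1, 42.0] and 247 [239, 256] CPM. The lower genes were Csf2, which encodes the growth factor GM-CSF, at 85.8 and 19.8 CPM, and Vcam1, a leukocyte adhesion protein, at 74.6 and 26.5 CPM. Csf2 had a log2 ratio of -2.96 against vehicle cells with Xist and -0.92, inside the line, against those with Y-linked UMIs. For Vcam1 these were -0.79, inside the line, and -1.19. In the low-S100 cells 4 were higher and 2 lower, with Cxcl2 at a log2 ratio of 4.42 and Cxcl5 at 2.64. The S100-rich cells held Cxcl2 at 25050 CPM and Cxcl5 at 8.33 CPM, so Cxcl5 was lower in them than in the takinib ductal cells. Upstream letters of Nfkbia and Cxcl2 are shown because both are classic NF-kB targets and both were higher in takinib, with the NF-kB string in capitals.
Nfkbia, minus strand, chr12:55492648-55492897: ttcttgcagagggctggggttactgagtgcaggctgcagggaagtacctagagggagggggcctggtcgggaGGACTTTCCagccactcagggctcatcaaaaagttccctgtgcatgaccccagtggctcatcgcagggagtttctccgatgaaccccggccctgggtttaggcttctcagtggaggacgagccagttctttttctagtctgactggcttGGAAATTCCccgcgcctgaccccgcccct
Cxcl2, plus strand, chr5:90903649-90903870: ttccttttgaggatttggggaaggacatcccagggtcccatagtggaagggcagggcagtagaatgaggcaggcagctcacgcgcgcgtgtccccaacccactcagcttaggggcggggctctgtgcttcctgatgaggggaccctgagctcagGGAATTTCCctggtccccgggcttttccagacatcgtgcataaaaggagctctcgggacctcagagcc
The Nfkbia matches start 178 and, on the opposite strand, 29 bases before the gene's start, and the Cxcl2 match starts 96 bases before. GGANTTTCC was held by 350 of 32851 promoters (1.07%), and these matches describe letters only.

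Acute phase genes, secreted by epithelia under inflammation, had the highest median of the 30 pathway lists at 1.81, with 6 of 9 higher and 0 lower. Saa3, a serum amyloid protein, was at 52.7 CPM in vehicle [47.1, 58.8] and 2115 in takinib [2090, 2139]. In vehicle 85.7% of its UMIs lay in 1 cluster led by collagen genes, and 1 cell held over 50% of them. In takinib 29 of 951 cells held over 50% of its UMIs. Lcn2, an iron-binding lipocalin, was at 161 and 3186 CPM. Wfdc2, a secreted protease inhibitor of epithelium, was at 602 CPM [583, 622] and 2138 [2114, 2163]. For 5 of the 9 genes, the amount in proportion to neutrophil RNA was over 50% of the takinib level. In the low-S100 cells 5 were higher and 0 lower. The log2 ratios there were 4.61 for Saa3, 4.02 for Lcn2 and 1.90 for Wfdc2. The S100-rich cells held Saa3 at 17286 CPM and Wfdc2 at 17.5.

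**Figure D3:**
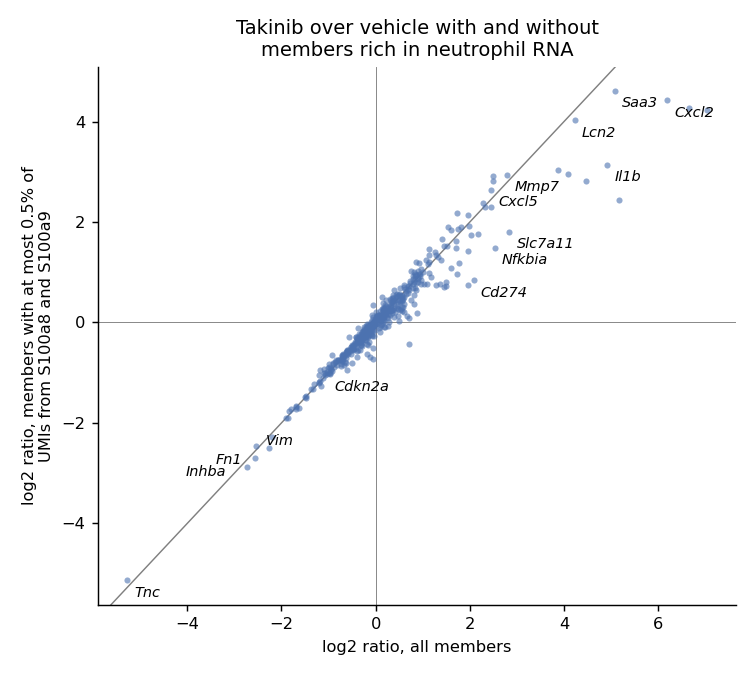
Log2 ratio of takinib over vehicle for each listed gene in all Cdkn2a+ ductal cells (x axis) and in those with at most 0.5% of UMIs from S100a8 and S100a9 (y axis), with the line of equal values. Saa3, Lcn2, Cxcl5, Mmp7, Cdkn2a, Vim, Fn1 and Tnc lie near the line, and Cxcl2, Il1b, Nfkbia and Cd274 lie below it.

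Immediate-early genes, the first transcribed after growth factor or stress signals, were higher in 8 of 20, with 0 lower and a median of 0.83. Fos, a subunit of AP-1, was at 117 CPM in vehicle [109, 126] and 621 in takinib [608, 634], and Zfp36, which destabilises cytokine transcripts, at 63.9 and 324. Egr1, a growth-induced zinc finger factor, was at 122 and 422 CPM. The count was again 8 of 20 in the low-S100 cells. These genes also respond to tissue digestion, whose part in the result was not tested. In the 12 integrated stress response genes, Ppp1r15a alone passed the line (0.81 and so inside it against vehicle cells with Xist), and the list median was 0.28 (-0.20 against the vehicle cells with Xist).

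Mesenchymal genes had the lowest median of all lists at -1.02, 8 of 16 being lower and 1 higher. Tnc, the matrix protein tenascin C, was at 1213 CPM in vehicle [1185, 1241] and 21.5 in takinib [19.1, 24.1]. Fn1 was at 6111 [6049, 6174] and 1032 [1015, 1049] CPM, and Vim at 2073 [2037, 2110] and 350 [340, 360]. Inhba, a subunit of the TGF-beta family ligand activin A, was at 263 and 31.3 CPM. Tgfbi, a TGF-beta induced matrix protein, went the other way, at 13.6 and 43.7 CPM, but was inside the line in the low-S100 cells, at 0.90, and without the clusters led by macrophage, collagen and endocrine genes, at 0.47. In the low-S100 cells the counts were 8 lower and 1 higher with a median of -1.07. Against the vehicle cells of either sex the median was -0.95 and -0.99.

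The mesenchymal transcripts of vehicle were held by few cells. Within the vehicle Cdkn2a+ ductal cells, 39 of 751 held over 50% of the Vim UMIs and 33 held over 50% of the Tnc UMIs. A cluster of 98 vehicle cells and 3 takinib cells, led by Prl2c2 and Prl2c3, held 66.8% of vehicle Vim and 74.3% of vehicle Inhba. Over its cells the label's markers were low for Epcam, at 77.0 CPM, and for Krt7, at 234 CPM, while Krt18 was at 1736, Cdkn2a at 1270 and Hmga2 at 480. Of its vehicle cells 76 had Y-linked UMIs and 0 had Xist. Prl2c2 and Prl2c3 are near-identical proliferin genes whose reads may be split between them. They had 0 counts in the vehicle cells with Xist, an interval ending at 4.09 CPM, and were at 385 and 164 CPM in those with Y-linked UMIs. Left without that cluster, Vim had a log2 ratio of -1.73 in place of -2.53 and Inhba -1.27 in place of -2.73, while Fn1 was at -2.73. Inhba was at -0.97, inside the line, against vehicle cells with Xist. A second cluster, of 186 vehicle and 5 takinib cells and led by Tnc and Fn1, held 87.6% of vehicle Tnc and 63.2% of vehicle Fn1. It kept Epcam at 1830 CPM and Krt7 at 2231, and its Cdkn2a was 1637 CPM. With 1 library for each group, a cluster almost wholly of 1 library may be that library and not a cell type.

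Some matrix and attachment genes were lower as well. Of 18 basement membrane and integrin genes 6 were lower and 0 higher, with a median of -0.70. That median was -0.35 in the acinar-led cluster that both libraries share. Col4a1, a collagen IV chain, was at 186 CPM in vehicle [176, 198] and 42.6 in takinib [39.2, 46.2], and Lamb1, a laminin chain, at 186 and 50.5. Itgb6, an integrin subunit that activates TGF-beta, was at a log2 ratio of 0.50. Among the 18 TGF-beta pathway genes 3 were lower and 0 higher, with a median of -0.55. Id3, a target of BMP signalling, was at 285 and 51.0 CPM, and Smad7, the feedback inhibitor, at 174 and 62.7. In the acinar-led cluster that both libraries share, the TGF-beta median was 0.0275 and Smad7 was inside the line, at -0.18. Id3 depended on the Prl2c2-led cluster, without which its log2 ratio was -0.61 in place of -2.27, and it was -0.61 against vehicle cells with Xist. Fibroblast marker RNA in the same cells was at 298 CPM in sum in vehicle and 160 in takinib, and perivascular marker RNA at 167 and 27.0. Their part in the result was not tested. Without the clusters led by macrophage, collagen and endocrine genes, the basement membrane median was -0.66 and the mesenchymal median -1.47.

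YAP and TAZ, which carry mechanical signals to TEAD factors, had 23 measured targets and partners, with 5 lower, 1 higher and a median of -0.52. In the acinar-led cluster that both libraries share, the list median was -0.0115. Nt5e, the surface nucleotidase CD73, was at 198 CPM [187, 210] and 35.4 [32.3, 38.7]. Axl, a receptor kinase, was at 95.6 and 19.6 CPM, with 63.9% of its vehicle UMIs in the Prl2c2-led cluster. Without that cluster it was inside the line, at -0.95 in place of -1.84. F3, which encodes tissue factor, was at 52.7 and 147 CPM, and just inside the line against vehicle cells with Xist, at 0.97. Yap1 itself was at 64.6 and 31.9 CPM, inside the line.

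Proteases were mixed, with 2 of 17 higher, 1 lower and a median of -0.03. Mmp7, a matrix metalloproteinase of duct epithelium, was at 241 CPM in vehicle [229, 254] and 1728 in takinib [1706, 1750]. It was at a log2 ratio of 2.93 in the low-S100 cells and at 23.1 CPM in the S100-rich cells. Serpinb2, an inhibitor of plasminogen activators, had 0 counts in vehicle and 45.9 CPM in takinib, 90.6% of it in the cluster led by collagen genes and over 50% in 1 cell. Without the clusters led by macrophage, collagen and endocrine genes its log2 ratio was 0.54, inside the line. Plat, tissue plasminogen activator, was at 161 and 65.2 CPM.

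Hypoxia and glycolysis genes were higher in 6 of 24, with 0 lower and a median of 0.75. Egln3, an oxygen-sensing prolyl hydroxylase and HIF target, was at 7.39 CPM in vehicle [5.39, 9.89] and 85.0 in takinib [80.2, 90.1]. Bnip3, a mitophagy receptor, was at 30.4 and 155 CPM, and Car9, a carbonic anhydrase, at 24.3 and 83.7. Vegfa, another HIF target, was at 221 and 177 CPM, a log2 ratio of -0.30. Among low-S100 cells 5 were higher, with Egln3 at 2.30. In the acinar-led cluster that both libraries share, the list median was 0.11 and Car9 was at -0.0036. Of 15 NRF2 targets 4 were higher and 0 lower, with a median of 0.44. Slc7a11, the cystine transporter, was at 4.44 and 93.5 CPM, and Gsta4, a glutathione transferase, at 186 and 938. Within the low-S100 set they were at log2 ratios of 1.81 and 2.38.

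Epithelial identity genes moved in both directions. Of 25 ductal genes 3 were higher and 0 lower, with a median of 0.34. Elf3, an epithelial transcription factor, was at 89.6 CPM [82.2, 97.4] in vehicle and 228 [220, 236] in takinib. Sox9 had the lowest log2 ratio at -0.58. Elf3 was inside the line without the Prl2c2-led cluster, at 0.92, and at -0.22 in the acinar-led cluster that both libraries share, where the ductal median was -0.05. Of 10 keratin and squamous genes 3 were higher and 1 lower, the median being 0.01, led by Ly6d at 15 and 130 CPM and Krt23 at 31.2 and 108, with Krt17 lower at 23.8 and 6.59. Krt17 was inside the line against vehicle cells with Xist (-0.74) and with Y-linked UMIs (-0.82), and Krt23 was at -0.0930 in the shared cluster. Of 11 mucin and secretory genes 2 were higher and 1 lower, with Muc4, a membrane mucin, at 17.1 and 49.5 CPM and Pigr, which carries antibodies across epithelium, at 39.1 and 97.9. Both were inside the line without the Prl2c2-led cluster, at 0.88 and 0.85, and in the shared cluster Muc4 was at -0.78 and the list median -0.32. Among 14 gastric and endodermal factors 2 were higher and 1 lower. Lgals4, a gut galectin, was at 124 and 507 CPM, and Cldn18, a gastric claudin, at 39.8 and 7.69. Cldn18 turned direction with the vehicle cells used, at a log2 ratio of 0.41 against those with Xist and -1.82 against those with Y-linked UMIs. Of 4 Reg lectins, induced by pancreatic injury, 2 were higher and 0 lower, with a median of 1.23, beside acinar marker RNA of 158 CPM in vehicle and 921 in takinib, whose part in the result was not tested.

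Oncofetal genes beside Hmga2 were low or level. Of 8, 0 were higher and 1 lower, with a median of 0.06. H19, an imprinted fetal RNA, was at 26 and 6.74 CPM, and inside the line against vehicle cells with Y-linked UMIs, at -0.94, and in the low-S100 cells, at -0.92. Igf2bp2 was at 57.8 and 54.4 CPM, and Hmga1 at 158 and 193. Hmga2 was inside the line, with a log2 ratio of -0.32.

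Antigen presentation showed no gene past the line for class I, 0 of 13, with a median of 0.17. Of 6 class II genes 0 were higher and 1 lower, H2-Aa at 35.3 and 12.6 CPM, and the median was -0.74. H2-Aa was inside the line against vehicle cells with Xist (-0.65) and with Y-linked UMIs (-0.92). None of 16 interferon response genes passed, with a median of 0.26. Of 10 immune ligands 2 were higher and 1 lower. Cd274, which encodes the checkpoint ligand PD-L1, was at 1.81 CPM in vehicle [0.902, 3.23] and 39.9 in takinib [36.6, 43.4]. Its log2 ratio was 2.08, and 0.84 in the low-S100 cells, inside the line, and the S100-rich cells held it at 322 CPM. Il33, an alarmin and the lower gene of the list, was at 33.4 and 9.16 CPM, but this direction rested on some vehicle cells. It was 0.41 against vehicle cells with Xist, -1.63 against those with Y-linked UMIs, 0.30 without the Prl2c2-led cluster and -0.94 in the low-S100 cells. Death and survival genes were level, with 1 of 20 higher, 0 lower and a median of -0.07.

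**Figure D4:**
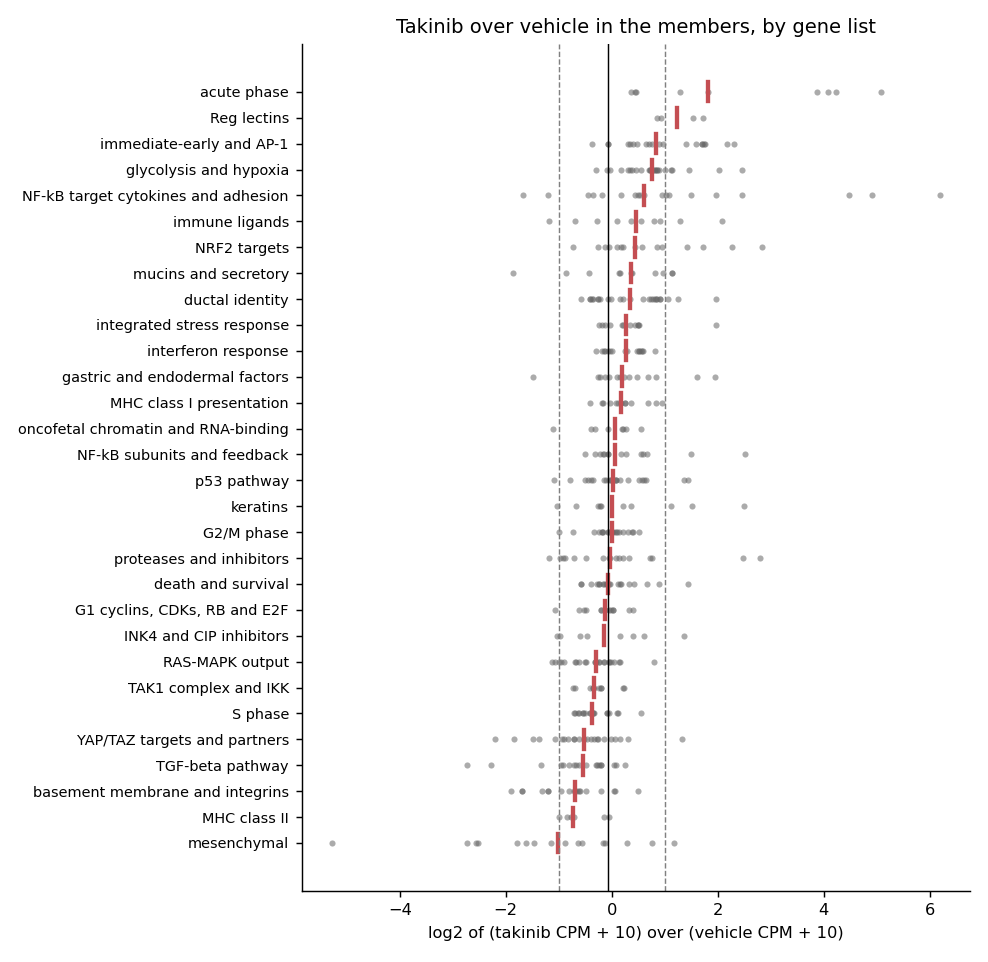
Log2 ratio of takinib over vehicle (x axis, 10 CPM added) for every measured gene of each pathway list (grey points) with the list median (red bar), the median of all 11470 genes at -0.08 (solid line) and the 2-fold lines (dashed). Acute phase genes have the highest median, 1.81, and mesenchymal genes the lowest, -1.02.

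Of the 89 listed genes past the line, 67 were past it in the same direction against both the vehicle cells with Xist and those with Y-linked UMIs. Of the 30 list medians, 6 differed in sign between or from those comparisons. The acute phase median was 2.49 against cells with Xist and 1.81 against those with Y-linked UMIs, and the basement membrane median -1.03 and -0.64. YAP and TAZ targets were at -0.76 and -0.46, and hypoxia genes at 0.89 and 0.61. Those that changed sign were the G2/M, integrated stress response, oncofetal, INK4 and CIP, p53 and protease lists. Within vehicle, 67 of 7912 genes (0.847%) were higher and 101 (1.28%) lower in cells with Xist than in those with Y-linked UMIs. Csf2 was at 222 CPM against 46.4, while Tm4sf1 was at 133 against 970. Cdkn2a was at 1427 CPM [1350, 1507] with Xist and 1042 [1009, 1076] with Y-linked UMIs.

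**Figure D5:**
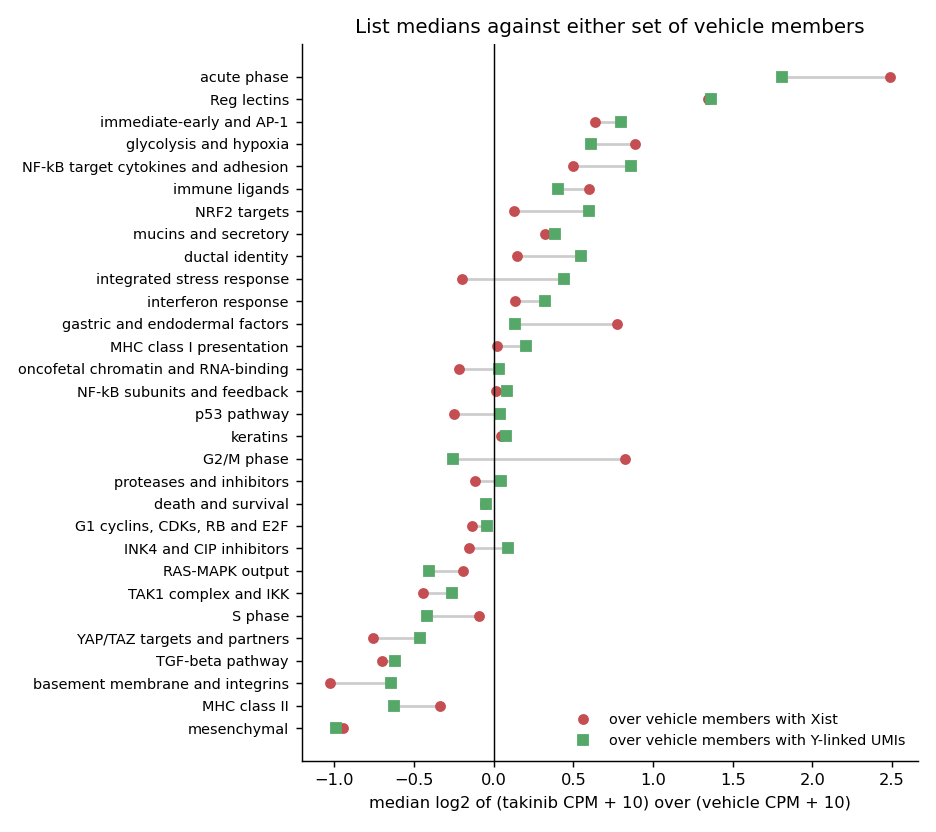
Median log2 ratio of takinib over vehicle (x axis) of each pathway list (y axis), computed against vehicle Cdkn2a+ ductal cells with Xist (red circles) or with Y-linked UMIs (green squares), joined by a grey line. Acute phase and mesenchymal medians lie at opposite ends against both, and the G2/M median is 0.82 against one and -0.26 against the other.

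Only 1 cluster held at least 50 cells of each library, and it allows a comparison among cells that clustered together. It had 157 vehicle and 158 takinib cells, was led by acinar genes such as Ctrb1, and had little Hmga2, at 16.1 CPM. Cdkn2a in it was at 412 CPM in vehicle and 343 in takinib, a log2 ratio of -0.26, against -1.03 over all cells. Mmp7 was at 711 and 3712 CPM (2.37), Saa3 at 10.6 and 242 (3.61), Cxcl2 at 22.3 and 235 (2.92), Fos at 105 and 345 (1.62) and Nfkbia at 41.4 and 100 (1.10). Ccnd1 was at 364 and 157 CPM (-1.17). These 6 genes were thus past the line in this cluster too, while Cxcl5 was on the other side of 0 there, at -0.90. Vim, at 64.7 and 31.2 CPM, and Fn1, at 355 and 191, were inside it, both at -0.86. Also inside it were Wfdc2 at 0.43, Egln3 at 0.73, Bnip3 at 0.85, Cdkn1a at 0.67, Tnc at -0.69, Inhba at -0.89 and Nt5e at -0.91. Over all 5008 genes compared in the cluster, 180 (3.59%) were higher and 111 (2.22%) lower, and 19 of the 49 listed genes called over all cells and compared here were past the line. Levels of S100a8 also differed within the cluster, at 49.9 and 388 CPM, and the part of neutrophil RNA in these ratios was not tested.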

How the data were processed

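The authors deposited raw UMI counts, written by Cell Ranger version 4 for vehicle and 6.1.1 for takinib per the file headers. The submitters' processing notes name genome build mm10, Cell Ranger 2.1.1, STAR 2.0.4b, bcl2fastq, Subread and featureCounts 1.45, without roles. Both matrices list 32285 genes. The vehicle matrix lists 704261 barcodes and 80850334 UMIs, and the takinib matrix 34158 barcodes, none under 500 UMIs, and 139292875 UMIs, so only takinib had been filtered by depth. The other deposited text files, per the labels, hold gene names and barcodes. The members and lists were chosen with earlier results of these data known.

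Counts were summed over the members of each library and scaled to CPM (6085608 UMIs in vehicle, 13653185 in takinib). Ratios are log2 with 10 CPM added. Genes reaching 50 summed counts on either side were compared, and counted as higher or lower past a log2 ratio of 1 or -1. With 1 library for each group there is no test. Up to 4 genes of each list were named, those of highest and lowest ratio, with the known centre of a pathway, and the 10 most raised and lowered genes were eligible. Other named genes were chosen after their values were seen. Thinning to 2000 UMIs was by hypergeometric expectation. Members were clustered with scanpy 1.11.5 and leidenalg 0.10.2 (2000 variable genes, 20 components, 15 neighbours, resolution 0.5), and clusters stayed unnamed. Doublets were kept. Scrublet marked 3.18% of vehicle barcodes and 0.00373% of takinib barcodes, too few for a working call there, and 28 vehicle and 74 takinib members lay in the highest 6% of scores. Scripts used Python 3.11.15, numpy 2.4.6, scipy 1.17.1 and pandas 2.3.3, and were tested on simulated data. Gene positions are from an annotation of GRCm38. A few genes are not reported here. The NF-kB letters were settled after longer forms had been searched in these promoters.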

Additional observations from a re-analysis of the deposited data

How the results depend on the processing

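No paired analysis was possible because there is 1 library for each group. The 385 genes higher and 310 lower in takinib became 919 and 771 with 1 CPM added in place of 10. Chosen after seeing the data, subtraction of the neutrophil profile left 233 higher, and the cluster shared by both libraries gave 180 higher and 111 lower. In the other alternatives run, 307 to 436 were higher and 255 to 407 lower. Lowering or dropping the 50-count minimum gave the same counts, since 10 CPM added already sets a higher bar. The share of epithelial barcodes, 5.99 points higher in takinib, was -11.3 points after thinning to 2000 UMIs, -1.44 with at most 10% mitochondrial UMIs, 2.1 against vehicle barcodes with Xist and 2.16 against those with Y-linked UMIs. Over cells with 0 Cdkn2a UMIs, 1 CPM added gave 537 higher genes in vehicle, and 362 higher and 618 lower in takinib, and equal weight for each cell gave 168 higher in vehicle and 36 in takinib. Of 447 list medians under alternatives, 45, in 14 lists, differed in sign from the reported one, and for 6 of these the reported median was past 0.2 in size. The TGF-beta pathway, the only one past 0.5 to do so, was at 0.0275 in the shared cluster. In the shared cluster Cxcl5 was at -0.90, Muc4 at -0.78, Elf3 at -0.22, Krt20 at -0.0939, Krt23 at -0.0930, F3 at -0.0654, Pigr at -0.0195 and Car9 at -0.0036. Against vehicle members with Xist, Prl2c3 was at 0.73, Cldn18 at 0.41 and Il33 at 0.41, and without the Prl2c2-led cluster, also chosen after seeing the data, Prl2c3 was at 0.48 and Il33 at 0.30. S100a9 was at -1.85 after subtraction of the neutrophil profile. The shared cluster holds fewer cells, and otherwise the cause was not tested. Over all alternatives run, the median ranged from -1.47 to -0.86 for mesenchymal genes, from 1.52 to 2.88 for acute phase genes, from 0.59 to 0.98 for immediate-early genes and from 0.11 to 0.92 for hypoxia and glycolysis genes. Cdkn2a ranged from -1.40 to -0.26, Vim from -3.14 to -0.86 and Mmp7 from 2.37 to 3.08. At vehicle totals, genes under 50 counts were not compared unless takinib reached that number.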
